A study of Mus musculus with 6 samples.

Results

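The genes that copy DNA were followed in naïve CD4 T cells with and without the cap methyltransferase RNMT. The set held 48 genes of DNA replication and S phase, chosen by symbol in 9 roles, out of 46983 genes in the count tables. All 48 were among the 12336 genes tested. Libraries came from 3 control and 3 Rnmt cKO samples, all male. Control mice carried floxed Rnmt alleles without Cre (Rnmt fl/fl CD4cre -), and Rnmt cKO mice carried the same floxed alleles with the Cre transgene (Rnmt fl/fl CD4cre +). The transgene uses Cd4 regulatory sequence and is active from the thymocyte stage on, so the loss of Rnmt dates from before the cells became naïve, and the transgene itself cannot be told apart from that loss. No treatment was given, and age and pooling of animals were not given in the sources used here. Cells were sorted from lymph nodes as live TCRb+ CD4+ cells of naïve surface phenotype, without CD44, and their rRNA-depleted total RNA was sequenced.

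A naïve T cell rests outside the division cycle until its receptor is triggered. Before a cell can copy its DNA it loads the MCM2-7 helicase onto origins (licensing), switches the helicase on with CDC45 and the GINS complex, and recruits polymerases, a sliding clamp and a supply of deoxynucleotides. Many of these genes share E2F binding sites in their promoters: RB family proteins with repressor E2Fs hold them down in resting cells, and activator E2Fs turn them on as cells enter S phase.

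E2F sites were looked for as 4 spellings of 8 letters on both strands, TTTCCCGC, TTTGGCGC, TTTCGCGC and TTTGCCGC, in the 250 bases before each RefSeq start site (GRCm38.p6). Promoters were matched by symbol for 38 of the 48 genes. Gmnn, Mcm4, Gins1, Gins2, Gins4, Prim2, Pole, Rfc2, Tipin and Exo1 had no match, and 6 of the 38 had several start sites, of which the window with the most sites was taken. One or more of these spellings stood in 10 of 38 promoters (26.3%), against 583 of 27025 genes (2.16%) with a promoter in the table and 364 of the 8492 tested genes (4.29%). Of the 20 matched genes that were higher in Rnmt cKO by the test described below, 6 held one, as did 4 of the 18 that did not pass it. The stretches shown are those of the higher genes with the most sites, 1 per role, on the gene's strand. Capitals mark the letters found. In Mcm6 the first run of capitals is a pair of overlapping spellings.
Mcm6 promoter, chr1:128359721-128359840, minus strand: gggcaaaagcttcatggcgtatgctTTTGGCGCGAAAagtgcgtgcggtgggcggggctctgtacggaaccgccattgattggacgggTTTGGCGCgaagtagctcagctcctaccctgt
Cdc6 promoter, chr11:98907956-98908075, plus strand: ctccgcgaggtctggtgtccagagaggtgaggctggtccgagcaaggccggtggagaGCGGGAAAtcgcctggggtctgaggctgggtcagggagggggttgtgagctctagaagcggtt
Pola1 promoter, chrX:93632231-93632350, minus strand: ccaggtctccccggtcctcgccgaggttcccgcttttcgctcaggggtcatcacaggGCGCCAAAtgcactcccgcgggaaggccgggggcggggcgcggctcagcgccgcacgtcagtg
Uhrf1 promoter, chr17:56304071-56304190, plus strand: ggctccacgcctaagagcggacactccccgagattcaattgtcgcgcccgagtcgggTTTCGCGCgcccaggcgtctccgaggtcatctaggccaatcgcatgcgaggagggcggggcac
Mcm6 held 3 sites, the last of them 39 bases before the start site, and the other promoters printed held 1 each. A match describes these letters only, and no factor binding was measured.

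Read counts falling in genes ranged from 8873413 to 11277764 per library, and 31.8% to 47.9% of uniquely mapped reads fell in no gene, both extremes of that share being Rnmt cKO libraries. Rnmt itself had a mean of 56.0 ± 3.94 CPM (SD, n = 3) in control and 35.3 ± 7.88 CPM (SD, n = 3) in Rnmt cKO (log2 fold change -0.67, adjusted p = 0.00035). CPM are counts scaled to a common library size with TMM factors, and adjusted p-values are those of the exact test in edgeR, corrected by Benjamini-Hochberg over all tested genes, with a threshold of 0.05. The floxed part is 1 exon, so reads from the remaining Rnmt exons stay in that count. Of the naïve CD4 T cell markers, Lef1 lay between 812 and 883 CPM in control and between 842 and 906 CPM in Rnmt cKO, and Ccr7 between 360 and 438 CPM and between 405 and 531 CPM. Cd4 lay between 658 and 688 CPM in control and between 823 and 909 CPM in Rnmt cKO, so that these defining genes were present in every library. The markers were not all unchanged: of the 10 listed, 2 were higher and 2 lower in Rnmt cKO. Their log2 fold changes ran from -0.96 to 0.57. The list summed to 5592 to 6112 CPM in control and 6087 to 6903 CPM in Rnmt cKO. Of all tested genes 987 (8%) were higher and 844 (6.84%) lower in Rnmt cKO. Without scaling beyond library size these became 1938 and 535, and the median over all tested genes shifted from 0.01 to 0.14 on the log2 scale.

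Of the 48 replication genes, 24 were higher in Rnmt cKO, set against the 8% of all tested genes that were higher. None was lower, set against 6.84%, and none was lower at an unadjusted p under 0.05 either, in the edgeR exact test, and the quasi-likelihood test and DESeq2 also called none lower. In 30 genes every Rnmt cKO library lay above every control, which held for 16.6% of all tested genes. A rise of at least 1 on the log2 scale with a call was seen in 14 genes, against 2.69% of tested genes. The median log2 fold change of the 48 was 0.48, beside 0.01 for all genes. The higher genes ran from 1.34-fold (Mcm6) to 16.5-fold (E2f8). Summed over the set, the level went from 1202, 1214 and 1128 CPM in controls 1 to 3 to 1527, 1537 and 1673 CPM in Rnmt cKO 1 to 3. The groups did not overlap in this sum, and Rnmt cKO 3 was highest in 25 of the 48 genes and control 3 lowest in 27. In bulk RNA more cells in S phase and more of these RNAs per cell cannot be told apart. The filter on low counts asked for more than 1 CPM in any 3 libraries, before scaling. Orc1, Mcm10, Gins1, Tk1, E2f1 and E2f8 were above 1 CPM in every Rnmt cKO library but not in every control. Of these, Orc1, Mcm10, E2f1 and E2f8 passed the filter through the Rnmt cKO libraries alone. Among the 42 genes above 1 CPM in every control, 20 were higher and the median was 0.35.

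**Figure D1:**
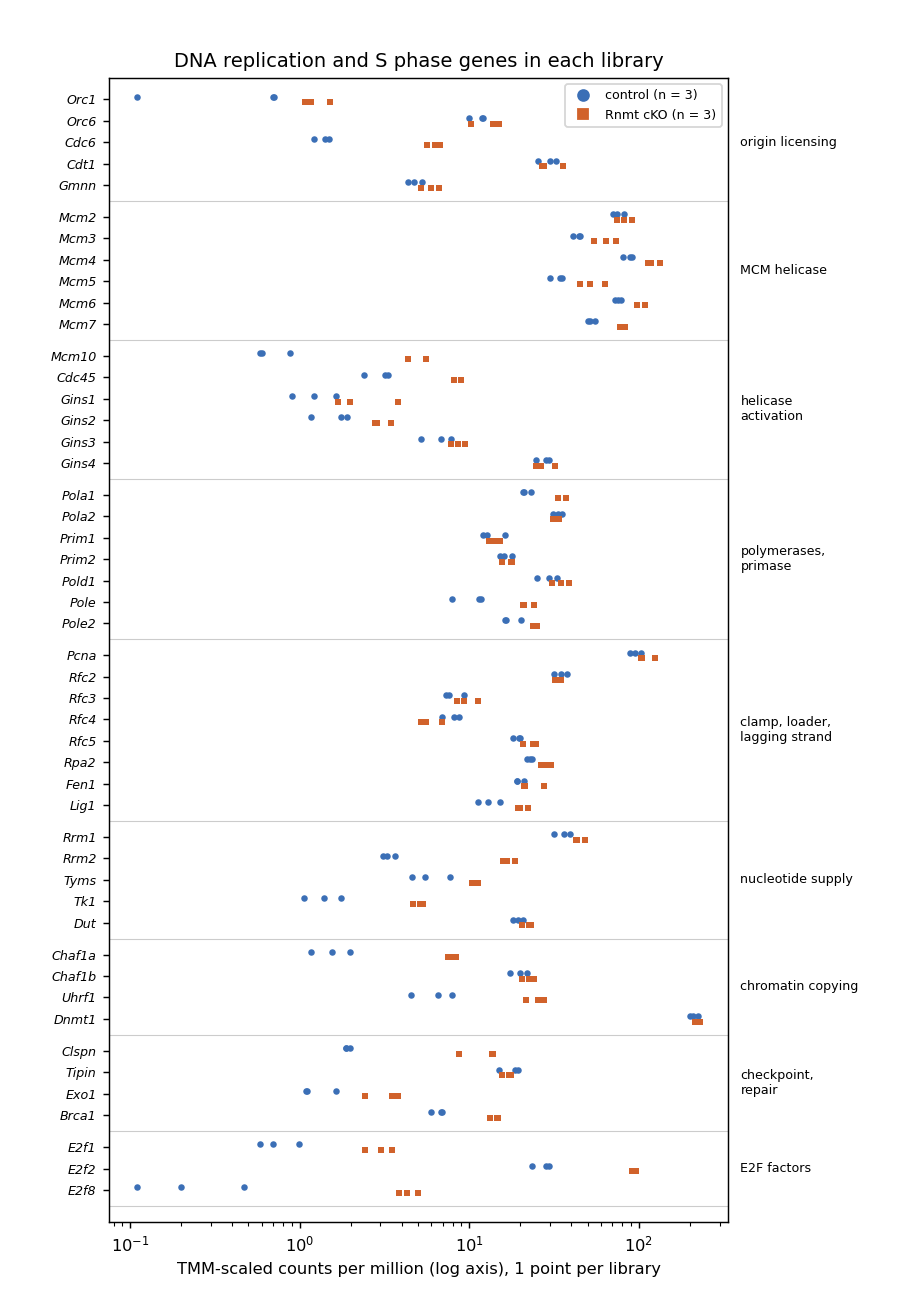
Level of each of the 48 genes in each library in TMM-scaled CPM on a log axis, grouped by role, with circles for the 3 control libraries and squares for the 3 Rnmt cKO libraries. The squares lie to the right of all circles in 30 genes, and the gap is widest for E2f8, Mcm10 and Clspn, while Dnmt1, Pcna, Mcm2 and Gins4 overlap.

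All 3 E2F factors were higher. Only E2f2 was above 1 CPM in every control. E2f1 and E2f8 passed the filter on low counts through the Rnmt cKO libraries alone, so a rise in them is partly fixed by the filter. E2f2, an activator E2F, was at 29.7, 23.6 and 28.3 CPM in controls 1 to 3 and at 95.5, 96.7 and 90.8 CPM in Rnmt cKO 1 to 3. This 3.48-fold rise (log2 fold change 1.80 ± 0.11 SE, adjusted p = 9.43e-54) came with a spread between libraries far smaller than the gap between groups. E2f1, another activator, was at 0.588, 0.699 and 0.994 CPM in control and at 3.49, 3.04 and 2.42 CPM in Rnmt cKO (1.95 ± 0.23 SE, adjusted p = 4.41e-06). E2f8, an atypical repressor E2F that is itself made in S phase, was nearly silent in control, with 4, 2 and 1 counts, and held 41, 59 and 43 counts in Rnmt cKO. Its log2 fold change was 4.05 ± 0.34 SE (adjusted p = 5.49e-18), and the ratio of the summed counts per effective library size was 17.3, with an exact 95% interval from 8.21 to 43.9 that covers counting error only.

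Among the licensing genes only Cdc6 passed the test. CDC6 acts with the origin recognition complex to load MCM2-7 onto origins. Its mRNA rose 4.5-fold, from 1.41, 1.5 and 1.22 CPM in controls 1 to 3 to 6.76, 6.33 and 5.65 CPM in Rnmt cKO 1 to 3 (log2 fold change 2.17 ± 0.11 SE, adjusted p = 9.25e-13). The groups were well apart. Its partner Cdt1, the loader that is destroyed once S phase begins, had the highest level per length of this role, 13.4 ± 1.58 RPKM (SD, n = 3) in control and 13.8 ± 2.20 RPKM (SD, n = 3) in Rnmt cKO, where RPKM divides CPM by exon length in kilobases. Its groups overlapped (0.04 ± 0.16 SE, adjusted p = 0.938). Gmnn, the inhibitor of CDT1, had a log2 fold change of 0.31 ± 0.13 SE (adjusted p = 0.427), and Orc6, an origin recognition subunit, one of 0.21 ± 0.19 SE (adjusted p = 0.586). Orc1, the subunit that comes and goes with the cycle, lay near the floor at 0.705, 0.699 and 0.111 CPM in control and 1.16, 1.52 and 1.08 CPM in Rnmt cKO. Its groups did not overlap, but the change of 1.29 ± 0.53 SE missed the threshold (adjusted p = 0.0551), and 74.1% of reads over Orc1 lay on the other strand, where Gm12743 is annotated. Without scaling beyond library size Orc1 passed (adjusted p = 0.0295), with reads of both strands counted the change turned to -0.08 (adjusted p = 0.969), and without control 3 it was 0.83 (adjusted p = 0.389).

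Of the 6 subunits of the MCM2-7 ring, 5 were higher, each by a modest factor. Mcm5 rose most, from 35.1, 34.4 and 29.8 CPM in controls 1 to 3 to 45.1, 51.7 and 63.3 CPM in Rnmt cKO 1 to 3 (log2 fold change 0.69 ± 0.16 SE, adjusted p = 3.06e-05). Mcm7 was the tightest, at 51.7, 55.5 and 50 CPM in control and 83.6, 77.8 and 82.6 CPM in Rnmt cKO (0.63 ± 0.05 SE, adjusted p = 4.19e-09). Mcm3, Mcm4 and Mcm6 had log2 fold changes of 0.56, 0.48 and 0.42, with no overlap between groups. Mcm4 had the highest level per length of the ring, 24.3 ± 1.42 RPKM in control and 33.9 ± 2.93 RPKM in Rnmt cKO (SD, n = 3). Mcm2 was the exception, at 74.5, 81.7 and 71.0 CPM in control and 81.9, 74.8 and 91.9 CPM in Rnmt cKO, with overlapping groups (0.13 ± 0.10 SE, adjusted p = 0.515). The ring genes were thus well expressed in resting control cells already, with control means between 9.59 RPKM (Mcm5) and 24.3 RPKM (Mcm4).

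Of the factors that switch the loaded helicase on, 3 of 6 were higher. MCM10, which despite its name is not part of the ring, helps to open the helicase: Mcm10 was at 0.588, 0.599 and 0.884 CPM in controls 1 to 3 and at 5.60, 5.57 and 4.39 CPM in Rnmt cKO 1 to 3, a 7.40-fold rise (log2 fold change 2.89 ± 0.19 SE, adjusted p = 6.48e-15). Cdc45, a subunit of the active helicase, rose 2.86-fold, from 3.17, 2.40 and 3.31 CPM to 8.14, 8.18 and 8.96 CPM (1.51 ± 0.14 SE, adjusted p = 5.05e-09). Neither gene had overlapping groups, but Mcm10 passed the filter on low counts through the Rnmt cKO libraries alone. The GINS subunits differed among themselves. Gins4 had by far the highest level per length, 20.5 ± 1.75 RPKM in control and 20.6 ± 2.75 RPKM in Rnmt cKO (SD, n = 3), and a log2 fold change of 0.01 ± 0.13 SE (adjusted p = 0.998). Gins3 stood at 2.44 RPKM in control and had a change of 0.39 ± 0.19 SE (adjusted p = 0.276). Gins1, at 1.15 RPKM in control, had one of 1.01 ± 0.40 SE (adjusted p = 0.111) and passed when Rnmt cKO 3 was left out (1.15, adjusted p = 0.0384). Gins2, at 0.414 RPKM in control, was called higher at 0.90 ± 0.21 SE (adjusted p = 0.0348), a weak call that was lost with the quasi-likelihood test (adjusted p = 0.0751), with DESeq2 (adjusted p = 0.191) and without any one of controls 1 to 3 or Rnmt cKO 1 or 2 (adjusted p between 0.0747 and 0.212). In addition, 94.7% of reads over Gins2 lay on the other strand, where Gse1 is annotated.

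Among the polymerases, the catalytic subunits Pola1 and Pole rose and the primase genes did not pass the test. Pola1, the catalytic subunit of the polymerase that starts each strand, was at 21.2, 23.2 and 20.9 CPM in controls 1 to 3 and at 37.1, 37.5 and 33.2 CPM in Rnmt cKO 1 to 3 (log2 fold change 0.72 ± 0.07 SE, adjusted p = 8.98e-08). Its accessory subunit Pola2 had the highest level per length of this role in control, 11.6 ± 0.702 RPKM (SD, n = 3). In Rnmt cKO Pola2 was at 11.4 ± 0.401 RPKM (SD, n = 3), with a change of -0.03 ± 0.06 SE (adjusted p = 0.939). Prim1 and Prim2, the primase subunits of the same complex, had changes of 0.03 ± 0.14 SE (adjusted p = 0.955) and 0.05 ± 0.09 SE (adjusted p = 0.899). Pole, the catalytic subunit of the leading strand polymerase, rose from 11.4, 11.7 and 7.95 CPM to 20.7, 21.0 and 24.0 CPM (1.08 ± 0.19 SE, adjusted p = 2.4e-08). Both catalytic subunits had groups that did not overlap. Pole2, the accessory subunit, was called at 0.47 ± 0.10 SE (adjusted p = 0.00673), and the call was lost without control 2 (adjusted p = 0.101), control 3 (0.0601) or Rnmt cKO 1 (0.0512). Pold1, the catalytic subunit of the lagging strand polymerase, had a change of 0.25 ± 0.15 SE (adjusted p = 0.27) and passed only without scaling beyond library size (adjusted p = 0.0394).

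The clamp, the clamp loader and the lagging strand genes had the lowest share of higher genes of the 9 roles, 1 of 8. Pcna, the sliding clamp and the member with the highest level per length of all 48, was at 103, 88.9 and 95.1 CPM in controls 1 to 3 and at 103, 104 and 125 CPM in Rnmt cKO 1 to 3. Its groups overlapped, and the change was 0.21 ± 0.11 SE (adjusted p = 0.212). It passed without scaling beyond library size (adjusted p = 0.00834) and with the share of reads in no gene as a covariate (adjusted p = 0.0163). Reads were counted where they mapped uniquely, and Pcna has annotated pseudogene copies (Pcna-ps1, Pcna-ps2). Lig1, the ligase that joins lagging strand fragments, rose from a mean of 13.1 ± 1.96 CPM to 20.6 ± 1.55 CPM (SD, n = 3; log2 fold change 0.65 ± 0.14 SE, adjusted p = 0.000665). Rpa2, of the single-strand binding complex RPA, was at 22.8, 23.5 and 22.0 CPM in control and at 28.2, 26.6 and 30.5 CPM in Rnmt cKO. Its groups did not overlap, and the change of 0.32 ± 0.06 SE lay just outside the threshold (adjusted p = 0.0569). Rpa2 passed in 4 of 16 alternative settings, among them the stricter filters on low counts (adjusted p = 0.0452 and 0.0441). Fen1, the flap nuclease, had a change of 0.24 ± 0.13 SE (adjusted p = 0.319). The clamp loader genes Rfc2, Rfc3 and Rfc5 had log2 fold changes of -0.06, 0.27 and 0.26 and none passed (adjusted p = 0.835, 0.459 and 0.207), with 41.4% of reads over Rfc5 on the other strand.

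Rfc4, another clamp loader subunit, was the 1 gene of the 48 whose Rnmt cKO libraries all lay below the controls. It was at 8.11, 8.68 and 6.96 CPM in controls 1 to 3 and at 5.60, 5.23 and 6.90 CPM in Rnmt cKO 1 to 3. The change of -0.42 ± 0.15 SE did not pass (adjusted p = 0.203), and it did pass when Rnmt cKO 3 was left out (-0.57, adjusted p = 0.0496). Reads on the other strand, where Eif4a2 is annotated, made up 21.3% of those over Rfc4.

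In nucleotide supply the limiting subunit of ribonucleotide reductase gave one of the clearest changes of the set. Rrm2, the small subunit whose amount follows S phase, was at 3.64, 3.29 and 3.09 CPM in controls 1 to 3 and at 16.7, 15.9 and 18.6 CPM in Rnmt cKO 1 to 3, a 5.09-fold rise (log2 fold change 2.35 ± 0.09 SE, adjusted p = 9.35e-29). Rrm1, the large subunit, which cells hold more steadily, had a change of 0.32 ± 0.11 SE (adjusted p = 0.0533). Its groups did not overlap, and it passed in 4 of 16 alternative settings, among them leaving out control 3 (adjusted p = 0.0365). Tyms, which makes thymidylate, rose from 4.58, 7.69 and 5.52 CPM to 10.5, 11.2 and 10.5 CPM (0.84 ± 0.21 SE, adjusted p = 0.00147). Tk1, the thymidine salvage kinase, rose from 1.06, 1.4 and 1.77 CPM to 4.65, 5.15 and 5.38 CPM (1.83 ± 0.20 SE, adjusted p = 1.18e-08). Before scaling, Tk1 was above 1 CPM in every Rnmt cKO library but not in every control. Afmid is annotated opposite Tk1, and 66.6% of reads over Tk1 lay on that strand. With reads of both strands counted the change of Tk1 was 0.36 (adjusted p = 0.296). Dut, which removes dUTP, had the highest level per length of this role in control, 9.06 ± 0.615 RPKM, and 10.2 ± 0.694 RPKM in Rnmt cKO (SD, n = 3), and a change of 0.18 ± 0.08 SE (adjusted p = 0.45).

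The genes that copy chromatin behind the fork divided in the same manner, with 2 of 4 higher. Chaf1a, the large subunit of the histone chaperone CAF-1, was at 1.18, 2.00 and 1.55 CPM in controls 1 to 3 and at 8.14, 8.35 and 7.53 CPM in Rnmt cKO 1 to 3 (log2 fold change 2.32 ± 0.20 SE, adjusted p = 3e-16). Uhrf1, which brings the maintenance methyltransferase to newly copied DNA, rose from 7.88, 6.59 and 4.53 CPM to 21.7, 25.6 and 27.7 CPM (1.98 ± 0.25 SE, adjusted p = 4.56e-21). Reads on the other strand, where Ubxn6 is annotated, made up 17.6% of those over Chaf1a. The partners of both genes did not pass. Chaf1b, the middle subunit of CAF-1, had a change of 0.18 ± 0.11 SE (adjusted p = 0.464), and Dnmt1, the maintenance methyltransferase, was at 201, 225 and 210 CPM in control and 223, 215 and 230 CPM in Rnmt cKO (0.07 ± 0.06 SE, adjusted p = 0.73).

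Of the checkpoint and repair genes, 3 of 4 were higher. Clspn, the fork protein that activates CHK1, was at 1.88, 2.00 and 1.88 CPM in controls 1 to 3 and at 13.6, 13.8 and 8.69 CPM in Rnmt cKO 1 to 3 (log2 fold change 2.64 ± 0.22 SE, adjusted p = 3.93e-18). Brca1, of homologous recombination and fork protection, rose 2.17-fold from 6.82, 6.89 and 5.96 CPM to 14.6, 14.8 and 13.3 CPM (1.12 ± 0.08 SE, adjusted p = 2.15e-08). Exo1, a nuclease of resection and mismatch repair, rose from 1.65, 1.10 and 1.10 CPM to 3.49, 3.80 and 2.42 CPM (1.34 ± 0.25 SE, adjusted p = 0.00202). None of these had overlapping groups. Tipin, of the fork protection complex, had the highest level per length of this role, 9.60 ± 1.29 RPKM in control and 9.11 ± 0.541 RPKM in Rnmt cKO (SD, n = 3), and a change of -0.08 ± 0.13 SE (adjusted p = 0.836).

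**Figure D2:**
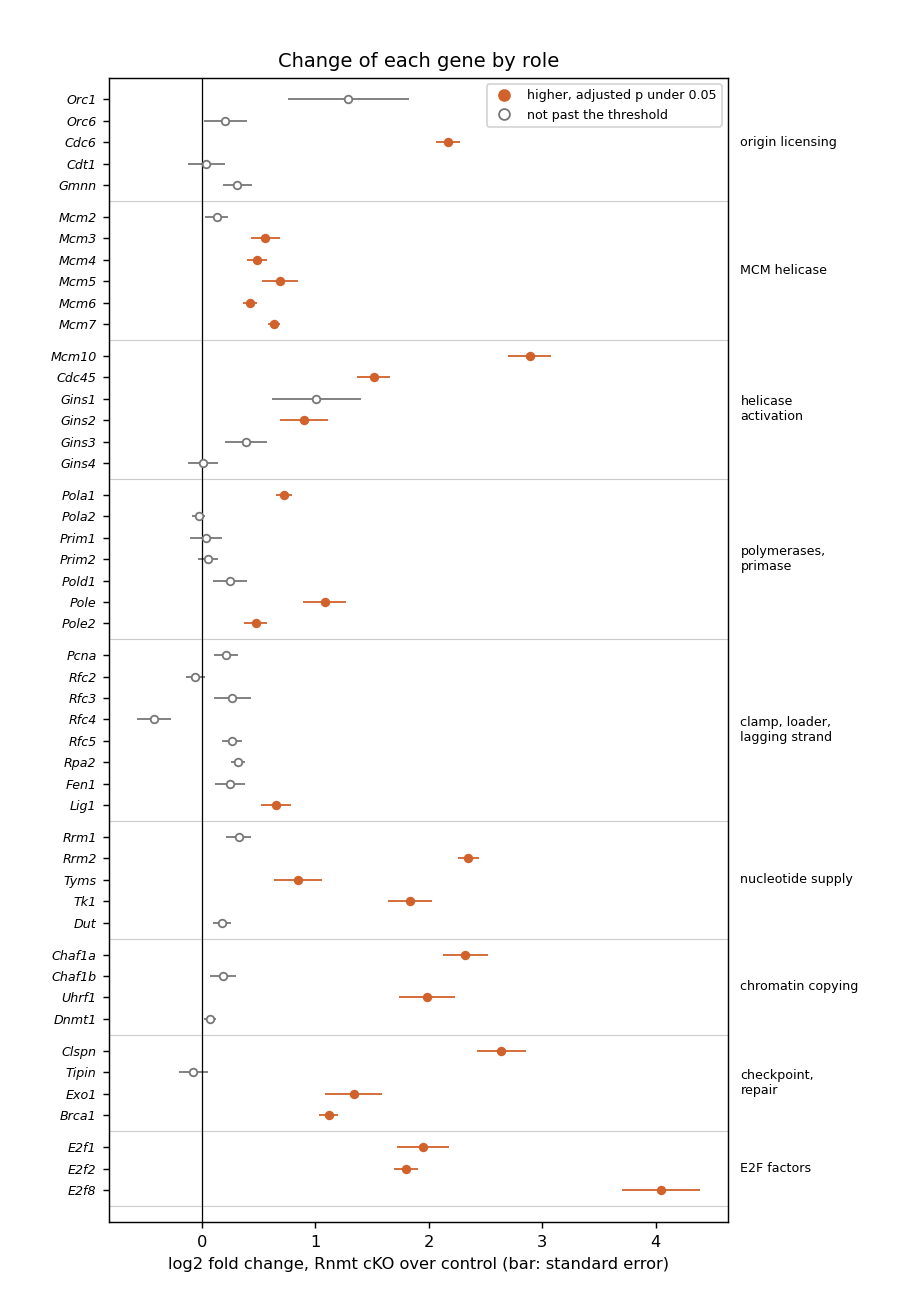
Log2 fold change of Rnmt cKO over control for each of the 48 genes, grouped by role, with bars for the standard error (3 libraries per group). Filled points passed the threshold and open points did not. All 3 E2F factors are filled, 5 of the 6 MCM ring genes are filled near 0.5, and 7 of the 8 clamp and lagging strand genes are open. E2f1, E2f8 and Mcm10 passed the filter on low counts through the Rnmt cKO libraries alone.

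Genes with less RNA in control cells had the larger fold changes. Over the 48 genes the log2 fold change had a Spearman rho of -0.74 with the control RPKM and -0.64 with the mean RPKM of both groups. With CPM in place of RPKM, rho was weaker, at -0.642 with the control level and -0.519 with the mean level. These are descriptions: the fold change contains the same control values, and all genes come from the same 6 libraries. Of the 10 genes with a mean under 5 CPM over all libraries, 8 were higher, with a median log2 fold change of 1.89. Of these 10, 6 were not above 1 CPM in every control before scaling. Among them Orc1, Mcm10, E2f1 and E2f8 passed the filter through the Rnmt cKO libraries alone. A large rise in this class is therefore partly fixed by the filter. Among the 16 genes between 5 and 20 CPM, 8 were higher and the median was 0.52. The 22 genes at 20 CPM or more also counted 8 higher, with a median of 0.25. In CPM rather than in folds the order of the medians turned: Rnmt cKO exceeded control by a median of 2.94, 3.41 and 6.98 CPM in the low, middle and high class. E2f2 lay above genes of similar level, with 5.74 RPKM in control and a 3.48-fold rise.

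**Figure D3:**
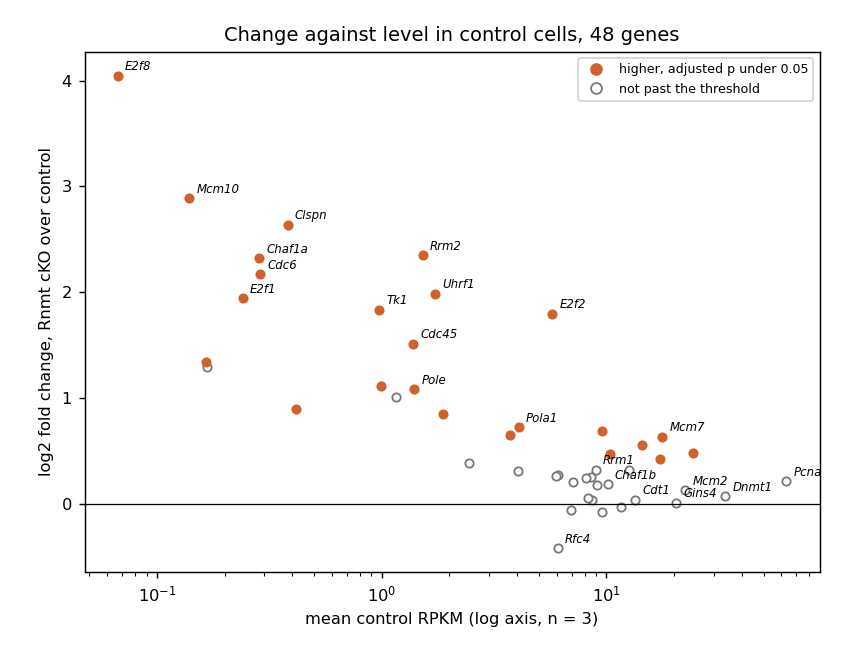
Log2 fold change of Rnmt cKO over control against the mean control RPKM on a log axis, 1 point per gene, filled where the gene passed the threshold. Points fall from E2f8 at the upper left to Pcna and Dnmt1 at the lower right, and E2f2 lies above its neighbours.

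The balance between partners of one complex was also compared. The ratio of RPKM within each library was taken for 4 pairs, picked after their values were seen. Rrm2 over Rrm1 was 0.183, 0.189 and 0.143 in controls 1 to 3 and 0.713, 0.672 and 0.696 in Rnmt cKO 1 to 3, a difference of 2.03 ± 0.13 SE on the log2 scale. The small subunit was the scarcer RNA in all 6 libraries. For Chaf1a over Chaf1b the mean ratio went from 0.0281 ± 0.00636 to 0.127 ± 0.0152 (SD, n = 3), and for Pola1 over Pola2 from 0.350 ± 0.0253 to 0.589 ± 0.0217. Pole over Pole2 went from 0.135 ± 0.0274 to 0.206 ± 0.0184. The groups did not overlap in any of the 4 ratios, and the exact two-sided permutation test gave p = 0.1 for each, the smallest that 3 libraries against 3 allow, and 0.1 after Benjamini-Hochberg adjustment over the 4 pairs. Because the pairs were picked with their values known, these p-values add no support to the differences.

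**Figure D4:**
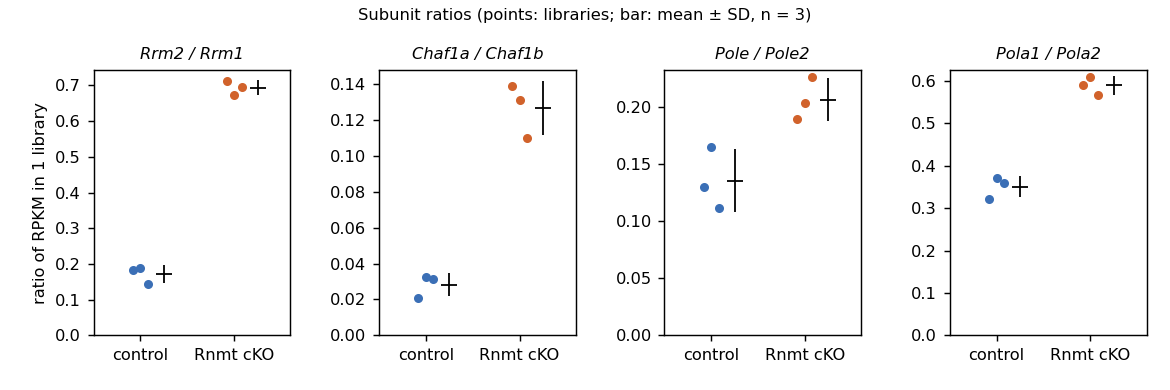
Ratio of RPKM between partners of the same complex in each library, with points for the 3 control and 3 Rnmt cKO libraries and bars for the mean ± SD. In each of the 4 panels all Rnmt cKO libraries lie above all control libraries, and the numerator stays below its partner.

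The wider replication machinery held a smaller share of called genes. Of 52 other replication genes, all tested, 9 were higher and 3 lower, beside 8% and 6.84% of all tested genes, so the lower calls were no larger a share than among all genes. The median log2 fold change was 0.14, beside 0.01 for all genes. Among the 50 genes above 1 CPM in every control 7 were higher, since Ticrr and Chek1 were not above it in every control. The higher ones were led by Ticrr, which with TOPBP1 recruits CDC45, at 0.941, 1.20 and 1.55 CPM in control and 4.75, 5.65 and 5.65 CPM in Rnmt cKO (log2 fold change 2.11 ± 0.19 SE, adjusted p = 9.88e-11). Chek1, the kinase downstream of CLSPN, rose by 1.79 ± 0.52 SE on the log2 scale (adjusted p = 0.000203), and Asf1b, a histone chaperone, by 0.88 ± 0.19 SE (adjusted p = 0.00154). The lower ones were Rrm2b, the p53-inducible ribonucleotide reductase subunit (-0.35, adjusted p = 0.00757), Primpol, a primase of stalled forks (-0.34, adjusted p = 0.0443), and Cad, the first enzyme of pyrimidine synthesis (-0.29, adjusted p = 0.0278). Counts for this list depended on the processing: without scaling beyond library size 20 were higher and 0 lower, and DESeq2 left 1 lower. Without control 1 or control 2 none of this list was lower, and without control 3, Rnmt cKO 1 or Rnmt cKO 2 only 1 was.

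Of 26 genes that control E2F, RB and entry into S phase, 25 were tested, 7 were higher and none was lower, beside 8% and 6.84% of all tested genes, nor was any lower at an unadjusted p under 0.05 in the edgeR exact test, or with the quasi-likelihood test or DESeq2. Ccna2, the S phase cyclin, was at 1.41, 1.6 and 1.22 CPM in controls 1 to 3 and at 16.2, 19.8 and 18.1 CPM in Rnmt cKO 1 to 3 (log2 fold change 3.67 ± 0.13 SE, adjusted p = 8.44e-49). E2f7, the other atypical repressor, rose by 2.76 ± 0.67 SE (adjusted p = 4.16e-08), and Ccne2, a cyclin of S phase entry, by 2.19 ± 0.31 SE (adjusted p = 2.48e-06). Both E2f7 and Ccne2 passed the filter through the Rnmt cKO libraries, and 5 of the 23 genes above 1 CPM in every control were higher. Many reads over Ccna2 and Ccne2 lay on the other strand. In controls 1 to 3 Ccna2 had 12, 16 and 11 counts beside 78, 87 and 85 on that strand, and Ccne2 7, 8 and 9 beside 82, 102 and 131. In Rnmt cKO 1 to 3 the other strand held 94, 124 and 132 reads over Ccna2 and 96, 122 and 104 over Ccne2. The count was 15 without scaling beyond library size, 3 without Rnmt cKO 1 and 4 without Rnmt cKO 2.

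Mitosis genes, listed to follow cells past S phase, had larger fold changes than the replication genes. All 30 listed were tested and 28 were higher, beside 8% of all tested genes. The median log2 fold change was 2.40, beside 0.01 for all genes. Nusap1, a spindle protein, rose by 3.48 ± 0.47 SE (adjusted p = 1.66e-31), Cenpf, of the kinetochore, by 3.29 ± 0.16 SE (adjusted p = 1.04e-43), and Birc5, of the chromosomal passenger complex, by 3.19 ± 0.45 SE (adjusted p = 8.19e-18). Their summed level went from 112, 126 and 108 CPM in controls 1 to 3 to 504, 545 and 466 CPM in Rnmt cKO 1 to 3, a ratio of means of 4.38, beside 1.34 for the 48 replication genes. The difference between the lists was not tested. Of the 30, 18 were above 1 CPM in every control, of which 16 were higher, with a median of 1.90. Requiring more than 1 CPM in all 6 libraries left 17 higher.

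**Figure D5:**
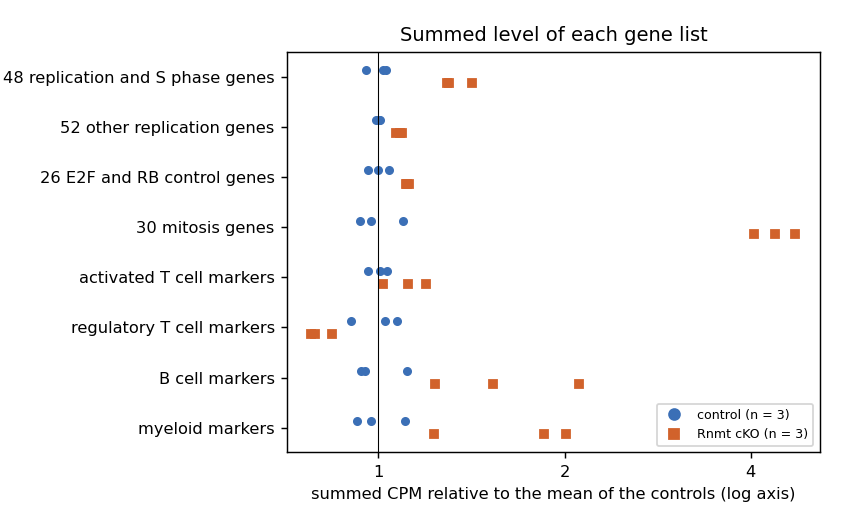
Summed CPM of each gene list in each library, divided by the mean of the 3 controls, on a log axis, with circles for control and squares for Rnmt cKO. Mitosis genes lie near 4, the 48 replication genes between 1.2 and 1.5, and the B cell and myeloid markers spread widely among the Rnmt cKO libraries.

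Markers of other cells moved with the groups too, and their part in the results above was not tested. The counts of calls below stand beside 8% of all tested genes higher and 6.84% lower. Of 8 B cell markers 5 were higher, and their summed level ranged from 43.5 to 51.5 CPM in control and from 57.3 to 97.8 CPM in Rnmt cKO, highest in Rnmt cKO 2. Of 7 plasma cell markers 4 were tested and 3 were higher, with Jchain at 1.88, 0.998 and 1.44 CPM in control and 5.60, 27.4 and 12.4 CPM in Rnmt cKO. The plasma list summed to between 73.0 and 78.3 CPM and between 93.8 and 121 CPM. Xbp1 and Irf4, also higher, had control means of 43.8 and 22.9 CPM in that sum, and Prdm1 did not pass (log2 fold change -0.58, adjusted p = 0.0743). Of its untested genes, Tnfrsf17 was at or near 0 in every library. Mzb1 had 7, 0 and 4 counts in controls 1 to 3 and 7, 34 and 16 in Rnmt cKO 1 to 3. Sdc1 had 3, 4 and 1 counts in control and 4, 11 and 2 in Rnmt cKO. Germinal centre markers, with 1 higher of 3 tested of 5, summed to 31.9 to 34.1 CPM and 32.8 to 47.4 CPM. Of 8 myeloid markers 6 were tested and 3 were higher, with sums of 24.9 to 29.9 CPM and 33.2 to 54.4 CPM. Without Rnmt cKO 2, 44 of the 48 replication genes were tested and 20 were higher, beside 5.31% of all genes tested in that setting. The B cell sums of Rnmt cKO 1 and 3, 57.3 and 71.1 CPM, also lay above the controls. Leaving out Rnmt cKO 2 therefore does not test the part of such cells. Of 12 activated and effector T cell markers 8 were tested, 3 were higher and 2 were lower, Cd44 among the latter, with sums of 297 to 318 CPM and 314 to 369 CPM and Ifng at or near 0. Of 5 regulatory T cell markers 2 were lower, with sums of 210 to 249 CPM and 181 to 196 CPM. Of 7 thymocyte markers 4 were tested, 1 was higher and 1 lower, with sums of 359 to 414 CPM and 343 to 352 CPM and Rag1, Rag2 and Ptcra at or near 0. Both CD8 markers were lower, with sums of 21.7 to 23.3 CPM and 13.5 to 17.3 CPM, as were the 2 erythroid markers tested of 6, with sums of 4.86 to 7.52 CPM and 1.16 to 1.35 CPM.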

How the data were processed

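Naïve CD4 T cell RNA was sequenced in 3 control and 3 Rnmt cKO libraries. Per the labels and methods, the authors aligned reads to mm10 (GRCm38) with STAR 2.5.2b and deposited raw counts per gene and strand, without normalization. The sense column was used: it equals, up to 1 constant per library, the normalized signal the authors deposited for 100% of 11221 genes. That signal, and the fold changes and p-values of the same table, were not used otherwise. Symbols, exon lengths and overlaps came from GENCODE, which held 46488 of the identifiers.

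Genes above 1 CPM in 3 or more libraries were tested with the edgeR 4.0.16 exact test (R 4.3.3) at an adjusted p of 0.05. Filter and test follow the study. TMM scaling was chosen here, and 12336 genes passed against 11221 in the deposited table. SE are of the difference of mean log2 CPM with a prior count of 2. On simulated counts the test was checked against known changes. No library repeated another: chi-square per degree of freedom between pairs was 3.64 to 22.9. The study describes the libraries as coming from 3 control and 3 Rnmt cKO mice. Counts limit precision through 8873413 to 11277764 gene reads per library.

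The 48 genes, the other lists and the tests were chosen with earlier results of these data known. Values are named by role: the gene with the highest RPKM, the largest called change, and every gene lower, not past the threshold or untested; further genes, and the 4 subunit pairs, were named after their values were seen. Other lists give the 3 largest rises and falls called. Alternatives were DESeq2 1.42.0 and its size factors, quasi-likelihood tests, no scaling, other filters, counts of either strand, a replicate block and leaving out each library. One marker gene is not reported here.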

Additional observations from a re-analysis of the deposited data

How the results depend on the processing

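Of the 24 higher replication genes, 19 passed in every alternative in which they were tested. Among these 19, E2f1, E2f8 and Mcm10 were tested in only 11 of 16 alternatives. They dropped out under the stricter filters on low counts and whenever an Rnmt cKO library was left out, so those settings could not challenge them. Gins2, Pole2, Tyms, Tk1 and Exo1 were lost in at least 1. The number higher was 23 with the quasi-likelihood test and with DESeq2, 31 without scaling beyond library size, 19 to 23 on leaving out 1 library, and 15 of 32 tested with more than 10 CPM in at least 3 libraries, a filter that tests fewer genes. The number lower was 0 to 1 on leaving out 1 library, the 1 being Rfc4 without Rnmt cKO 3. The median log2 fold change was 0.28 under the 10 CPM filter and 0.32 to 0.53 on leaving out 1 library, lowest without Rnmt cKO 3, where 44 genes were tested. No called result changed sign. Among genes not past the threshold, Orc1 turned negative with counts of either strand, and Cdt1, Gins4, Pola2, Prim1, Rfc2 and Tipin, all near 0, changed sign under at least 1 alternative.

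Other replication genes higher, 9 in the report, numbered 20 without scaling, 18 with the share of reads in no gene as a covariate and 4 under the 10 CPM filter. Those lower, 3 in the report, numbered 0 without scaling, 1 each without a filter, with DESeq2 and with counts of either strand, and 0 to 3 on leaving out 1 library. E2F and RB control genes higher, 7 in the report, numbered 15 without scaling, 13 with the covariate, 4 under the 10 CPM filter and 3 to 8 on leaving out 1 library. Mitosis genes higher, 28 in the report, numbered 17 with more than 1 CPM in all 6 libraries and 11 under the 10 CPM filter. The cause of the changes without scaling or with the covariate was not tested.

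With the replicate number as a replicate block in a quasi-likelihood fit, 20 replication genes were higher, Gins2, Pole2, Tyms and Exo1 falling out, with 3 and 0 other replication genes higher and lower and 4 E2F and RB control genes higher. Deviations of same-numbered libraries correlated at -0.213, -0.0164 and -0.345, so the numbers were not taken to pair libraries.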
